A study of Mus musculus with 3 samples.

Results

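The 10 genes described here were 7 ligands of the bone morphogenetic protein (BMP) family, Bmp2, Bmp3, Bmp4, Bmp5, Bmp6, Bmp7 and Gdf5, and 3 secreted antagonists, Grem1, Nog and Chrdl1. They were chosen by gene symbol among the 55422 genes listed, and each symbol matched 1 row. Their unique molecular identifiers (UMIs, a count of captured RNA molecules) were read in 3 droplet libraries of single cells from mouse long bone. All 3 libraries came from untreated C57BL/6 mice at postnatal week 3, which the study's methods give as males. The 2 metaphyseal libraries came from wild-type mice (C57BL/6J in the methods), from dissected metaphyses depleted of lineage-positive, CD45+ and CD117+ cells. The Pdgfra-GFP library held GFP+ cells sorted from the metaphysis and epiphysis of femur and tibia of mice heterozygous for the knock-in reporter Pdgfra-H2B-GFP, which marks cells that transcribe the receptor gene Pdgfra. The number of mice behind a library is not given in the sources used here, so the p-values below do not measure the spread between mice. They rest on the scatter left among UMI sums per library and population after both were fitted. That scatter was estimated over all 44 sums of these 3 libraries together, not over the compared populations alone. Sort, dissected region and reporter genotype all differed between the Pdgfra-GFP library and the metaphyseal libraries and cannot be told apart.

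BMP ligands are secreted dimers of the TGF-beta superfamily that bind paired type I and type II receptor kinases, which phosphorylate Smad1, Smad5 and Smad9 and switch on target genes such as the Id family. Noggin, gremlin and chordin-like proteins bind ligands outside the cell and keep them from their receptors. In growing bone the family is known for its part in chondrocyte maturation, osteoblast differentiation and joint formation, and several cell types around the growth plate make ligands and antagonists side by side.

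The metaphyseal libraries held 25243314 and 22082735 UMIs in all and the Pdgfra-GFP library 91747759. After filters on genes per cell and on mitochondrial and ribosomal share, 2389, 2011 and 11319 cells were kept, at a median of 6257, 6458 and 5354 UMIs per cell. Cells were assigned to populations by scores over marker genes that include no gene of the BMP pathway, so each name below means that the cells resemble the named type in those markers. Since the same markers set the populations, a count of where they were highest describes the gates and does not test them. Of the 73 markers of 18 populations, the general endothelial list left out, 70 were highest in their own population. The exceptions were Acan and Hapln1, higher in hypertrophic than in growth-plate chondrocyte-like cells, and Abi3bp, a superficial chondrocyte marker higher in fibroblast-like cells. The main populations were dpMSC-like cells (diaphyseal mesenchymal stromal cells, marked by Lepr, Cxcl12 and Adipoq), mpMSC-like cells (metaphyseal mesenchymal stromal cells, marked by Postn and Wif1), SC-like cells (septoclasts, the cells that resorb growth plate cartilage), OB-like cells (osteoblasts), growth-plate chondrocyte-like cells and endothelial cell (EC)-like cells. The metaphyseal libraries had 35 and 34 growth-plate chondrocyte-like cells and 13 and 10 SC-like cells, against 1485 and 214 in the Pdgfra-GFP library, so their values rest on few cells. Of the 237 SC-like cells, 55 had a higher mpMSC score than SC score, since a sufficient SC score took precedence. Cells were also clustered within each library, and the clusters named by the same markers. Of the SC-like cells, 157 fell in the cluster named SC-like, which only the Pdgfra-GFP library had, and 71 in clusters named mpMSC-like. Of the 2142 mpMSC-like cells, 300 fell in clusters named dpMSC-like. Though labelled as mesenchymal stromal cells, the metaphyseal libraries also held 423 and 315 mpEC-like cells (metaphyseal capillary endothelium) and 473 and 383 bmEC-like cells (marrow sinusoids), and the Pdgfra-GFP library 89 and 78. Cell barcodes shared between libraries numbered 0 for the metaphyseal pair and 9 and 10 between either of them and the Pdgfra-GFP library. The numbers of cells alone would give 0.71, 3.98 and 3.35, so the overlaps with the Pdgfra-GFP library were above that number. Levels are given as CPM, the UMIs of a gene for every 1e+06 UMIs of the population in that library. They are not divided by transcript length, since the counts come from the 3′ ends of transcripts. Levels are compared between populations for 1 gene. Where genes are ranked or summed, the values are read as counts of captured molecules only. Values of the 3 libraries are given throughout in the order metaphyseal replicate 1, metaphyseal replicate 2 and Pdgfra-GFP. Intervals cover counting error only.

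On the mm10 (GRCm38) assembly all 10 genes are annotated as protein coding. Bmp2 lies at chr2:133552159-133562885 on the plus strand, Bmp3 at chr5:98854415-98884396 (plus), Bmp4 at chr14:46383520-46390669 (minus), Bmp5 at chr9:75775364-75900310 (plus), Bmp6 at chr13:38345107-38500302 (plus), Bmp7 at chr2:172868012-172940321 (minus) and Gdf5 at chr2:155941023-155945367 (minus). Of the antagonists, Grem1 lies at chr2:113746164-113758646 (minus), Nog at chr11:89300638-89302332 (minus) and Chrdl1 at chrX:143285674-143394262 (minus). Bmp2, Bmp3, Bmp7, Grem1, Nog and Chrdl1 overlap no other annotated gene. Bmp4, Bmp5, Bmp6 and Gdf5 each overlap at least 1 gene on the other strand. The strand setting of the counting is not given in the sources used here, so reads of those 4 genes and of their partners may not be fully separated. For Bmp4 the partner Gm15222 was counted at 52.1, 41.3 and 19.8 CPM in dpMSC-like cells, well below Bmp4 itself.

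The members fell into a few patterns of level. Grem1, Chrdl1, Bmp4, Bmp6 and Bmp5 were highest in dpMSC-like cells among the populations with at least 10 cells in all 3 libraries. Bmp3 was highest there in OB-like cells, and Bmp2, Bmp7, Gdf5 and Nog in growth-plate chondrocyte-like cells. The dpMSC-like cells, which were 682, 640 and 3937 of the cells kept, held 95.4%, 95.6% and 88.4% of all Chrdl1 UMIs found in cells. For Grem1 that share was 92.0%, 92.2% and 58.2%, for Bmp4 88.6%, 90.0% and 80.2%, and for Bmp6 83.5%, 86.1% and 74.6%. OB-like cells held 75.6%, 79.2% and 66.2% of the Bmp3 UMIs. In the map of levels by population, the row of mpEC-like cells is low throughout, and the stromal, osteoblast and cartilage patterns cross in part. In populations with at least 10 cells only in the Pdgfra-GFP library, Bmp4 reached 316 CPM in late osteoblast or osteocyte-like cells. Grem1 reached 245 CPM in superficial chondrocyte-like cells, and Bmp3 129.8 CPM in chondrocyte-like cells marked by Efemp1.

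**Figure D1:**
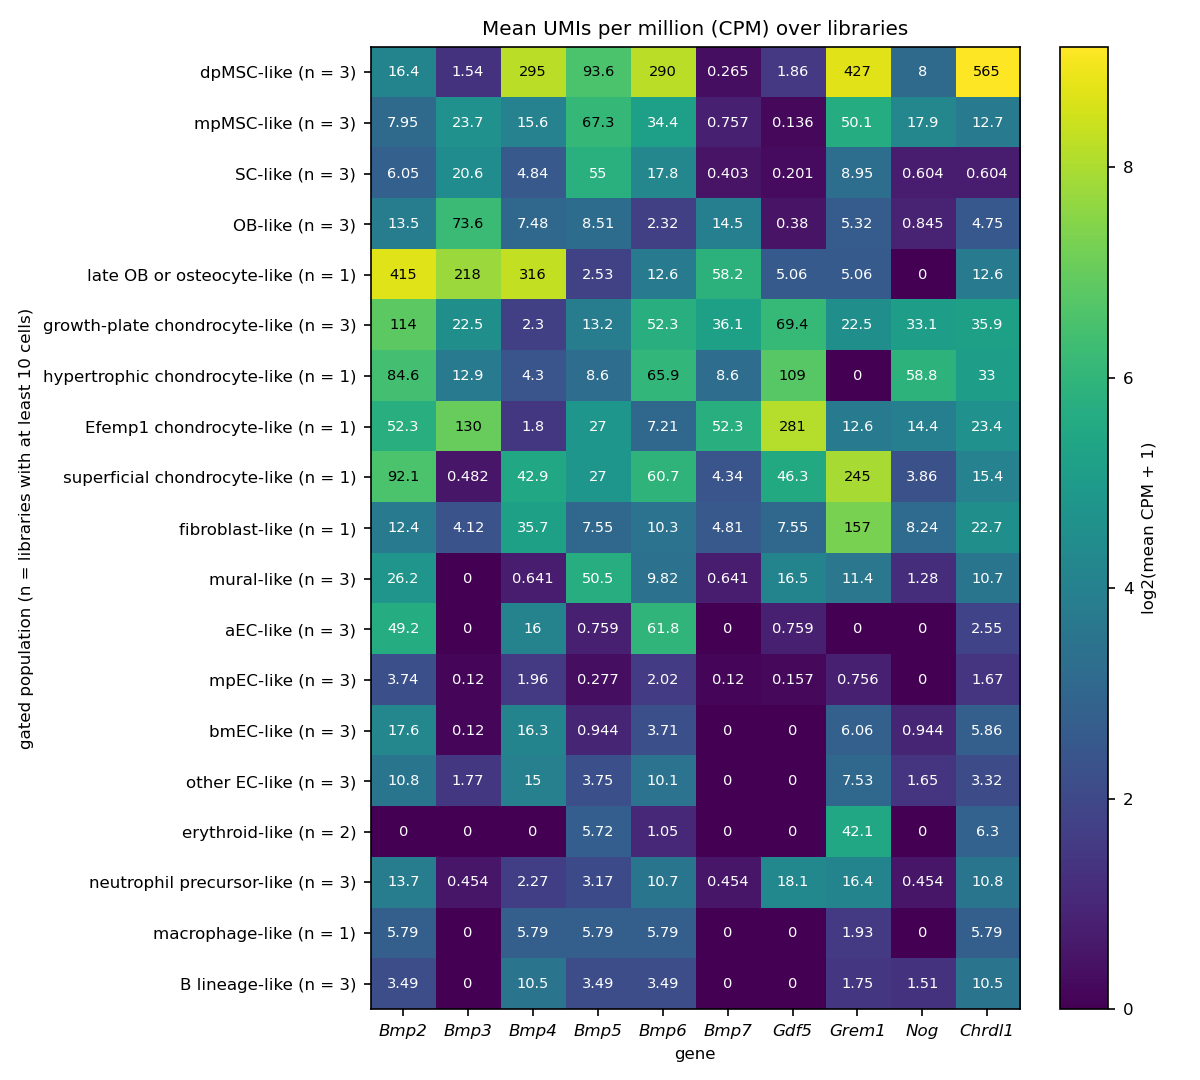
Level of each of the 10 genes (columns) in each marker-gated population (rows), printed as the mean CPM over the libraries with at least 10 cells, whose number is n, and coloured by log2(mean CPM + 1). In dpMSC-like cells Chrdl1, Grem1, Bmp4 and Bmp6 stand out, in OB-like cells Bmp3, in late osteoblast or osteocyte-like cells Bmp2, Bmp4 and Bmp3, and in cartilage Gdf5, Bmp2 and Bmp7, while the row of mpEC-like cells is low throughout.

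Background RNA was read from barcodes with at most 100 UMIs, which held 8.51%, 9.92% and 7.24% of a library's UMIs. In them Chrdl1 stood at 117, 109.6 and 96.2 CPM, Grem1 at 85.6, 65.8 and 67.9 CPM, Bmp6 at 68.9, 70.3 and 38.1 CPM and Bmp4 at 56.3, 60.7 and 41.8 CPM. The same genes reached far lower levels in several gated populations. In OB-like cells, for example, Chrdl1 stood at 1.47, 5.90 and 6.89 CPM, at median depths of 21888, 22530 and 11500 UMIs per cell. Shallower cells could hold more. In B lineage-like cells of the Pdgfra-GFP library, at a median of 3276 UMIs, Chrdl1 and Bmp4 each stood at 31.4 CPM, from 6 UMIs each. Both genes were at 0 UMIs in B lineage-like cells of the metaphyseal libraries. Erythroid-like cells, which should lack all members, held 0 UMIs of Bmp4 in each library. For Grem1 they held 7, 0 and 21 UMIs, the 21 in 4 of 56 cells. In metaphyseal replicate 1 and the Pdgfra-GFP library these counts came to 40.0 and 44.1 CPM. The Grem1 levels of mpMSC-like cells there, 41.1 and 39.7 CPM, were close to this, and those of SC-like cells, 7.50 and 19.3 CPM, were below it. Erythroid-like cells also held UMIs of Bmp6 (0, 4 and 1), Chrdl1 (0, 0 and 6), Bmp2 (0, 2 and 0) and Bmp5 (2, 0 and 0). The 4 Bmp6 UMIs were counted among only 9 cells. Neutrophil precursor-like cells of the Pdgfra-GFP library held 29 Grem1 UMIs, in 10 of 72 cells.

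Grem1 encodes gremlin 1, which binds BMP2, BMP4 and BMP7. It stood at 500.3, 523 and 256 CPM in dpMSC-like cells (427 ± 148, SD, n = 3 libraries) and at 41.1, 69.7 and 39.7 CPM in mpMSC-like cells. All dpMSC-like values lay above all mpMSC-like values. Chrdl1, encoding the BMP4 antagonist chordin-like 1, stood at 579.8, 598 and 516 CPM in dpMSC-like cells (565 ± 42.9, SD, n = 3) and at 15.1, 9.70 and 13.2 CPM in mpMSC-like cells. This was the widest gap of any member between these stromal populations, and the 3 libraries of each population lay close together.

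The ligand Bmp4, an inducer of bone and cartilage, reached 312, 339 and 234 CPM in dpMSC-like cells (295 ± 54.4, SD, n = 3) against 15.1, 17.6 and 13.9 CPM in mpMSC-like cells. Bmp6, known in endothelium for its control of the iron hormone hepcidin, stood at 335, 322 and 212 CPM (289.8 ± 67.7, SD, n = 3) against 41.1, 29.1 and 33.1 CPM. Neither ligand's libraries overlapped between these populations. Bmp5, a ligand of the BMP5 to BMP7 subgroup, stood at 93.1, 110.2 and 77.5 CPM in dpMSC-like cells and at 67.0, 77.6 and 57.3 CPM in mpMSC-like cells. For Bmp5 the ranges overlapped, although the dpMSC-like level was the higher in each library.

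The comparison of mpMSC-like with dpMSC-like cells asks how the members differ between stromal cells with the markers named for the metaphysis and those with the markers named for the shaft (diaphysis), both taken from the same dissected pieces. Sums of UMIs per library and population were tested with edgeR's quasi-likelihood test over 12954 genes, with the library as a block and Benjamini-Hochberg adjustment at 0.05. The fold changes were fitted with TMM scaling of the sums, which the CPM levels do not carry, so fitted values and CPM ratios can differ. It called 6 of the 10 members, where 28.6% of all genes tested were called. Log2 fold changes are given with standard errors, derived as the size of the fold change over the square root of the test's F value. The fold changes were -5.47 ± 0.33 for Chrdl1 (edgeR adjusted p = 1.01e-14) and -4.28 ± 0.29 for Bmp4 (edgeR adjusted p = 1.49e-13). For Grem1 the value was -3.18 ± 0.45 (edgeR adjusted p = 9.37e-07) and for Bmp6 -2.88 ± 0.31 (edgeR adjusted p = 3.39e-09). Each of these 4 was lower in mpMSC-like cells in 3 of 3 libraries. Bmp5 differed by -0.43 ± 0.23 with an edgeR adjusted p of 0.181. The median log2 fold change of the 10 members was -1.72, against -0.04 over all genes tested.

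Bmp3, an atypical member of the family that restrains the signalling of other BMPs, moved the other way. It stood at 1.51, 1.59 and 1.53 CPM in dpMSC-like cells and at 33.1, 17.6 and 20.4 CPM in mpMSC-like cells, a log2 fold change of 3.88 ± 0.35 (edgeR adjusted p = 5.33e-10). The groups did not overlap. Nog, encoding noggin, an antagonist with high affinity for BMP2 and BMP4, stood at 12.1, 7.68 and 4.25 CPM in dpMSC-like cells and at 10.8, 18.5 and 24.3 CPM in mpMSC-like cells. The test gave a log2 fold change of 1.60 ± 0.34 (edgeR adjusted p = 0.000402), but the groups overlapped and Nog was higher in mpMSC-like cells in 2 of 3 libraries. In metaphyseal replicate 1, 19 of the 48 Nog UMIs of dpMSC-like cells came from 1 cell. Without the Pdgfra-GFP library the difference was 0.64 with an edgeR adjusted p of 0.296. The Nog call was also lost with DESeq2's Wald test and when cells were grouped by clusters.

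**Figure D2:**
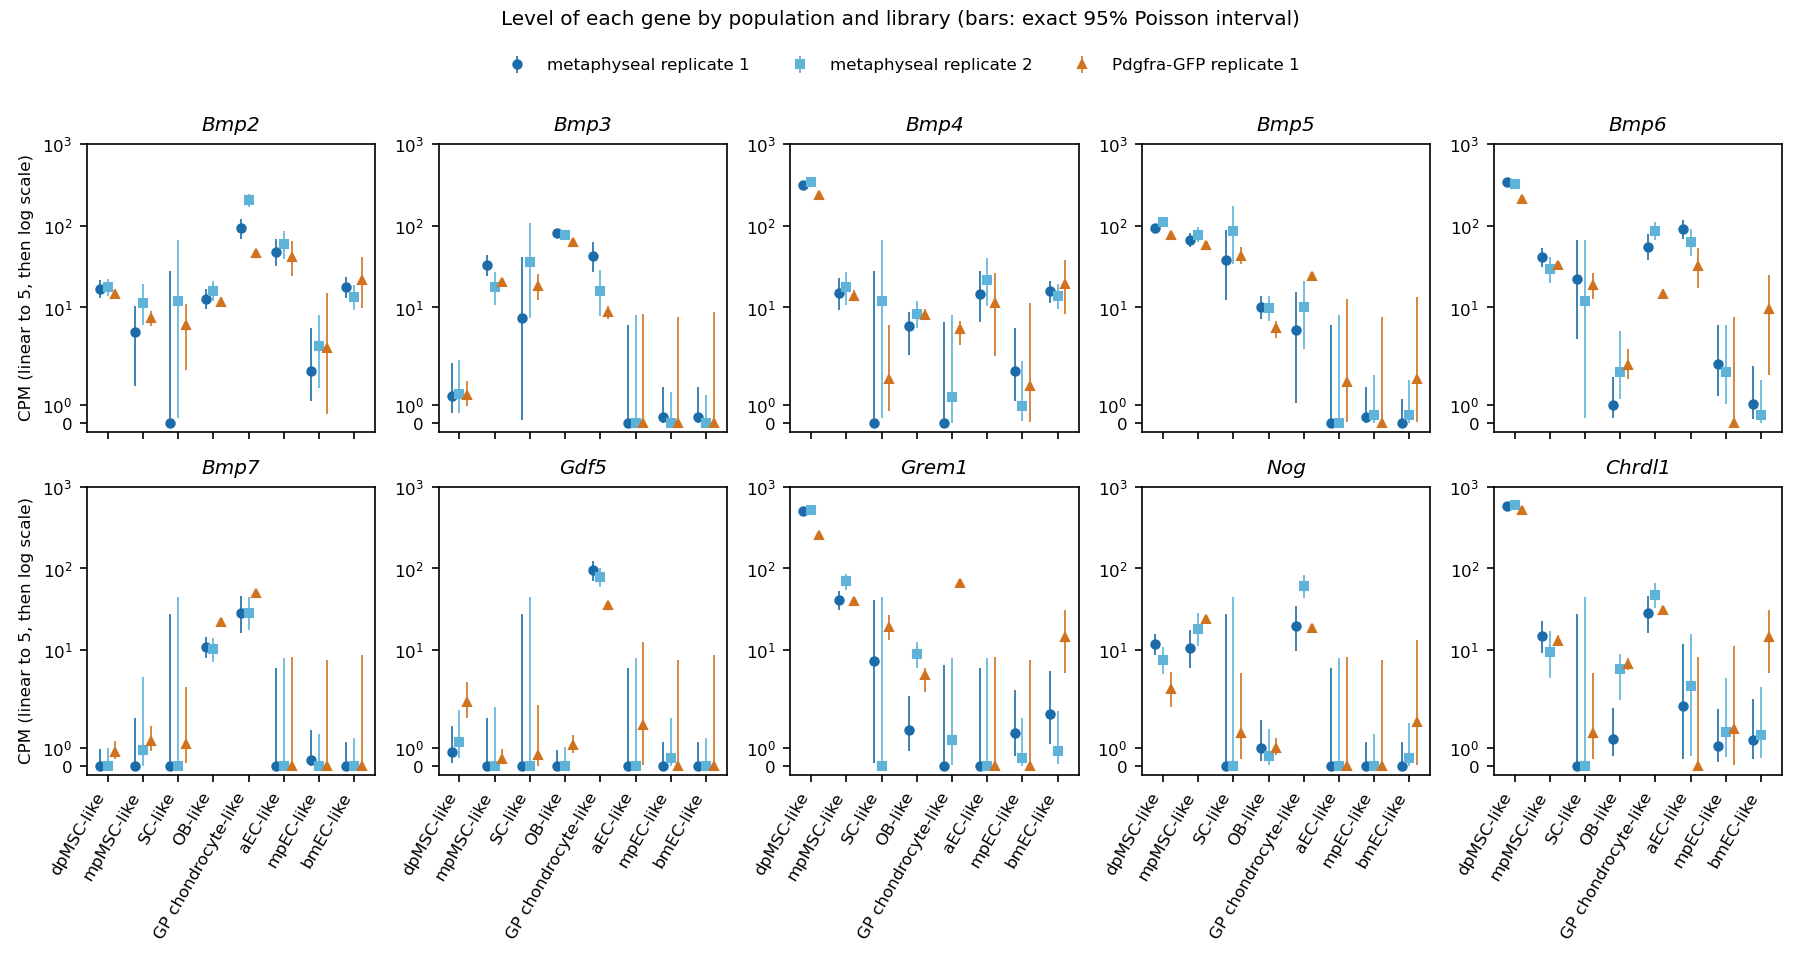
CPM of each gene (1 panel per gene) in 8 populations, on an axis linear to 5 CPM and logarithmic above, with 1 point per library and exact 95% Poisson intervals as bars. The dpMSC-like points of Chrdl1, Grem1, Bmp4 and Bmp6 all lie above 200 CPM and their mpMSC-like points all below 70 CPM, and the SC-like points of the metaphyseal libraries have the widest bars.

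Within dpMSC-like cells each of the leading members was seen in a large share of the cells. Cells were thinned to 2000 UMIs each, since median depth differed between libraries (5644.5, 5662.5 and 3573 UMIs per dpMSC-like cell). At that depth Chrdl1 was seen in 60.4%, 63.8% and 59.8% of dpMSC-like cells, against 0%, 0% and 3.64% of erythroid-like cells, whose unthinned median depths were 11521, 11602 and 8079 UMIs. Unthinned, the Chrdl1 shares in dpMSC-like cells were 86.2%, 85.8% and 76.5%. Grem1 was seen in 56.9%, 54.7% and 35.9% of thinned dpMSC-like cells (erythroid-like 7.69%, 0% and 5.45%), Bmp6 in 50%, 47.3% and 34.9%, and Bmp4 in 39.9%, 40.6% and 33.3%, with 0% of erythroid-like cells for both ligands. Chrdl1 differed little between libraries on this measure, while Grem1 and Bmp6 were seen less often in the Pdgfra-GFP library. Without thinning, 275, 278 and 514 dpMSC-like cells held a UMI of each of Bmp4, Bmp6, Grem1 and Chrdl1, or 40.3%, 43.4% and 13.1% of the population. Whether they met in 1 cell more often than their separate shares would give was not tested. Cells with none of these 4 made up 0.733%, 0.625% and 3.94%. At least 1 ligand and at least 1 antagonist were seen in 92.4%, 91.1% and 71.2% of dpMSC-like cells.

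Bmp4 and Grem1, a ligand and an antagonist that shared the dpMSC-like pattern, are shown with the sequence before their start sites. The 150 bases before each annotated start are from RefSeq on GRCm38.p6, 5′ to 3′ on the gene's strand. Of the 10 members, 4 had an entry in the promoter table. Windows that overlap an annotated untranslated region were left out, and those of Bmp4 and Grem1 were the ones that remained. Capitals mark matches on either strand to the searched motifs. The letters searched were TATAAA for the core promoter box of that name, CCAAT for the box bound by NF-Y, GGGCGG for the box bound by Sp1 (the GC box), CANNTG for the E-box bound by basic helix-loop-helix factors, and CCCNNGGG for the core of the motif of EBF factors. Bmp4 is chr14:46390670-46390819 on the minus strand and Grem1 is chr2:113758649-113758798 on the minus strand.
Bmp4: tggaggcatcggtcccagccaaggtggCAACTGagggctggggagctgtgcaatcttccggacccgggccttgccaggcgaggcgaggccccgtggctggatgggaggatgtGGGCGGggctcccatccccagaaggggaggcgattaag
Grem1: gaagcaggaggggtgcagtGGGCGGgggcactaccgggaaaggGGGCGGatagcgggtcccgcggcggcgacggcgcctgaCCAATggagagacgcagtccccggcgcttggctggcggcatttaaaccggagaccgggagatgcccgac

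The Bmp4 window held 1 GC box and 1 E-box, and the Grem1 window 2 GC boxes and 1 CCAAT box. Among 32851 promoter windows of the same length, 28.6% held a GC box, 47.7% an E-box and 24.5% a CCAAT box. Neither window held the TATA letters, found in 7.57% of windows, or the EBF core, found in 7.72%. The Grem1 window was the richer in CpG, with 17 CpG pairs and 70.7% G and C bases, against 8 pairs and 68.0% for Bmp4 and a median of 4 pairs and 54% over all windows. These matches are a description of letters and say nothing of binding.

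SC-like cells held 149 ligand and 38 antagonist UMIs in the Pdgfra-GFP library, led by Bmp5 with 71 UMIs, and followed at like counts by Grem1 with 32, Bmp6 with 31 and Bmp3 with 30. Bmp5 stood at 37.5, 84.7 and 42.9 CPM (55.0 ± 25.8, SD, n = 3), a range that overlapped that of mpMSC-like cells, and Bmp3 at 7.50, 36.3 and 18.1 CPM, which also overlapped. The 2 metaphyseal libraries held only 5 and 7 Bmp5 UMIs in SC-like cells. Nog was counted 0, 0 and 3 times in SC-like cells against 15, 21 and 297 times in mpMSC-like cells. In the Pdgfra-GFP library the Nog level in SC-like cells was 0.0747 of the mpMSC-like level (95% exact interval 0.0153 to 0.22). In the metaphyseal libraries a count of 0 allowed levels of up to 22.5 and 36.3 CPM, above the mpMSC-like levels there, so a difference was not detectable at that depth.

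To compare septoclasts with the metaphyseal stroma, the same test was used. It called 3 of the 10 members lower and 0 higher in SC-like against mpMSC-like cells, where 5.95% of all genes tested were called. Below an unadjusted edgeR p of 0.05 were 4 of 10 members, and 2197 of all 12954 genes tested. Nog had a log2 fold change of -3.63 ± 0.84 (edgeR adjusted p = 0.00537), Chrdl1 of -3.14 ± 0.95 (edgeR adjusted p = 0.0393) and Bmp4 of -2.57 ± 0.77 (edgeR adjusted p = 0.0375). Chrdl1 was counted 0, 0 and 3 times and Bmp4 0, 1 and 4 times in SC-like cells. Both genes were high in dpMSC-like cells, and 300 of the 2142 mpMSC-like cells fell in clusters named dpMSC-like. The share of these cells in the calls of Chrdl1 and Bmp4 was not tested. Grem1, at 7.50, 0 and 19.3 CPM against 41.1, 69.7 and 39.7 CPM in mpMSC-like cells, was lower in 3 of 3 libraries with an edgeR adjusted p of 0.212. Without the Pdgfra-GFP library 0 of 10 members were called by edgeR, and with either metaphyseal library left out only Nog was called, 1 of 10. The median log2 fold change of the members was -0.74, against -0.17 over all genes tested.

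OB-like cells were marked by Bmp3. It stood at 81.8, 76.2 and 62.8 CPM (73.6 ± 9.78, SD, n = 3), above every mpMSC-like library. Bmp7, a ligand known for its use in bone repair, stood at 11, 10.4 and 22.2 CPM against 0, 0.882 and 1.39 CPM in mpMSC-like cells, where it was counted 0, 1 and 17 times. Bmp2, needed for fracture repair in bone, stood at 12.7, 16 and 11.7 CPM against 5.04, 11.5 and 7.35 CPM. For each of these 3 ligands the OB-like libraries all lay above the mpMSC-like ones, by the narrowest margin for Bmp2.

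In the test of OB-like against mpMSC-like cells, which asks how the members differ along the bone-forming lineage, 7 of 10 members were called, where 39% of all genes tested were called. Bmp7 had a log2 fold change of 4.88 ± 0.32 (edgeR adjusted p = 2.65e-12), Bmp3 of 2.38 ± 0.24 (edgeR adjusted p = 3.55e-09) and Bmp2 of 1.45 ± 0.38 (edgeR adjusted p = 0.0023). The Bmp2 call was lost when cells were grouped by clusters instead of marker scores, where its direction turned to -0.63. Nog fell by 3.54 on the log2 scale (edgeR adjusted p = 6.14e-08), Bmp6 fell by 2.78 (edgeR adjusted p = 5.57e-07), Grem1 fell by 2.47 (edgeR adjusted p = 0.000385) and Bmp5 fell by 2.30 (edgeR adjusted p = 1.77e-08). Each of the 7 moved the same way in 3 of 3 libraries. Both Nog and Grem1 were thus lower in OB-like cells, at 0.980, 0.562 and 0.992 CPM for Nog. Chrdl1, at 1.47, 5.90 and 6.89 CPM, differed by -0.43 ± 0.37 (edgeR adjusted p = 0.388). Bmp4, lower by CPM in 3 of 3 libraries, differed by -0.15 ± 0.33 (edgeR adjusted p = 0.772). TMM factors were 0.7163, 0.7005 and 0.5283 for OB-like sums and 1.116, 1.099 and 1.013 for mpMSC-like sums. This scaling shifts the fitted fold changes of this comparison upward relative to CPM. For Bmp3 the fitted fold was 5.22, against CPM ratios of 2.47, 4.32 and 3.07. In metaphyseal replicate 2, 16 of the 32 Grem1 UMIs of OB-like cells came from 1 cell. With clusters the Grem1 call was lost.

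Cells with markers of late osteoblasts or osteocytes (Dmp1, Mepe, Phex) reached the 10 cells needed for a test only in the Pdgfra-GFP library, with 45 cells, so their levels are a description. There Bmp2 stood at 415 CPM from 164 UMIs, Bmp4 at 316 CPM from 125 UMIs, Bmp3 at 218 CPM from 86 UMIs and Bmp7 at 58.2 CPM from 23 UMIs. Nog was at 0 UMIs. The 7 and 9 such cells of the metaphyseal libraries held 10 and 10 Bmp2 UMIs, or 134 and 164 CPM, and 6 and 9 Bmp4 UMIs. In all 3 libraries Bmp2 and Bmp4 thus stood higher in these cells than in OB-like cells, in which Bmp4 was at 5.88, 8.43 and 8.13 CPM.

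Cartilage populations carried another set. Gdf5, a ligand known for joint formation, stood at 94.6, 78.2 and 35.4 CPM in growth-plate chondrocyte-like cells (69.4 ± 30.6, SD, n = 3), while mpMSC-like cells held 0, 0 and 5 UMIs. In the Pdgfra-GFP library the level was 86.6 times that of mpMSC-like cells (95% exact interval 36.9 to 268). Without the cell richest in Gdf5 of each library it was 53.6, 56.5 and 32.6 CPM. Few cells carried the gene, however: it was seen in 7 of 35, 9 of 34 and 169 of 1485 cells. The 5 richest cells held 96.2%, 90.7% and 22.0% of its UMIs in this population. Bmp7 stood at 28.6, 29.0 and 50.7 CPM (36.1 ± 12.7, SD, n = 3), and each chondrocyte-like library lay above each mpMSC-like and OB-like one. Bmp2 stood at 92.8, 203 and 46.2 CPM, but 32 of 52 and 82 of 140 UMIs of the metaphyseal libraries came from 1 cell each, without which they stood at 38.3 and 86.5 CPM. Chrdl1 stood at 28.6, 47.8 and 31.4 CPM, above the 15.1, 9.70 and 13.2 CPM of mpMSC-like cells in each library.

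Growth-plate chondrocyte-like and mpMSC-like cells resemble types from opposite sides of the border between cartilage and bone, but position was not read. The chondrocyte markers are general to cartilage, and the Pdgfra-GFP library also took in the epiphysis. Of the 1554 growth-plate chondrocyte-like cells, 160 fell in clusters named superficial chondrocyte-like. The test of these populations called 6 of 10 members, where 36.4% of all genes tested were called. Log2 fold changes were 7.45 ± 0.74 for Gdf5 (edgeR adjusted p = 1.98e-09), 5.76 ± 0.33 for Bmp7 (edgeR adjusted p = 5.5e-14), 3.85 ± 0.37 for Bmp2 (edgeR adjusted p = 1.73e-10) and 1.82 ± 0.37 for Chrdl1 (edgeR adjusted p = 0.000111). The fitted value of Gdf5 rests on 0, 0 and 5 UMIs in mpMSC-like cells, and how far it depends on the prior count of the fit was not tested. TMM factors were 0.8997, 0.9165 and 0.7122 for the chondrocyte-like sums and 1.116, 1.099 and 1.013 for the mpMSC-like sums. This scaling shifts the fitted fold changes of this comparison upward relative to CPM. Bmp5 fell by 1.28 on the log2 scale (edgeR adjusted p = 0.000396) and Bmp4 fell by 1.20 (edgeR adjusted p = 0.0182). The Bmp4 call, which rested on 0, 1 and 73 UMIs in chondrocyte-like cells, was lost without either metaphyseal library. When cells were grouped by clusters instead of marker scores, the calls of Gdf5, Bmp2 and Bmp4 were lost. Of the 10 members, Grem1, Bmp6, Nog and Bmp3 were not called.

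Grem1 was counted 0, 1 and 883 times in growth-plate chondrocyte-like cells, or 0, 1.45 and 66.1 CPM. Nearly all of its UMIs in this population thus came from the Pdgfra-GFP library. Nog stood at 19.6, 60.9 and 18.8 CPM, against 10.8, 18.5 and 24.3 CPM in mpMSC-like cells, and Bmp6 at 55.3, 86.9 and 14.7 CPM, against 41.1, 29.1 and 33.1 CPM. In both metaphyseal libraries Nog and Bmp6 were higher and Grem1 lower in chondrocyte-like cells, and in the Pdgfra-GFP library the reverse held. In metaphyseal replicate 1 the 95% exact interval of the ratio of chondrocyte-like to mpMSC-like cells included 1 for Bmp6 (0.841 to 2.12) and for Nog (0.755 to 4.23). Of the Bmp6 UMIs, 11 of 31 in metaphyseal replicate 1 and 39 of 60 in metaphyseal replicate 2 came from 1 cell each, and without it Bmp6 stood at 38.3 and 31.3 CPM, below and just above the mpMSC-like levels of those libraries. Without the Pdgfra-GFP library all 3 passed the test, Grem1 at -5.64 (edgeR adjusted p = 1.16e-06), Bmp6 at 1.37 (edgeR adjusted p = 0.000156) and Nog at 1.83 (edgeR adjusted p = 0.00177) on the log2 scale.

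**Figure D3:**
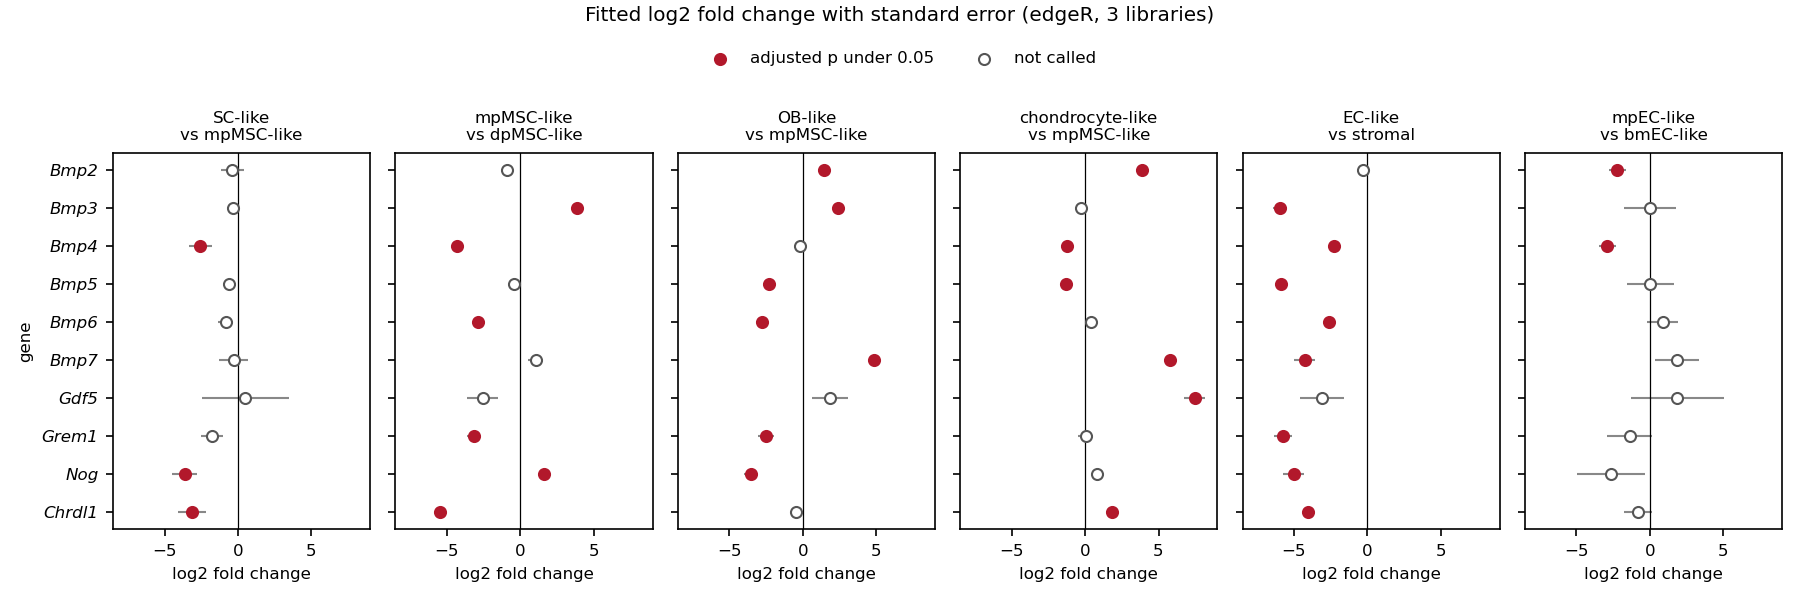
Log2 fold changes (horizontal axes) of the 10 genes (rows) in the 6 comparisons (panels), from the edgeR fit on 3 libraries. Bars are 1 standard error, derived from the fold change and the F value of the test, and filled red points mark an adjusted p under 0.05. Chrdl1, Bmp4, Grem1 and Bmp6 lie far below 0 in mpMSC-like against dpMSC-like cells, and Gdf5 and Bmp7 far above 0 in chondrocyte-like against mpMSC-like cells.

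Other skeletal populations reached 10 cells only in the Pdgfra-GFP library and are described from it without a test. The 70 chondrocyte-like cells marked by Efemp1 and Sfrp5 had the highest Gdf5 level of any population, 281 CPM from 156 UMIs, together with Bmp3 at 129.8 CPM and Bmp7 at 52.3 CPM. Gdf5 was seen in 29 of these cells, and 41 of its UMIs came from 1 cell, without which it stood at 210.6 CPM. Of the 72 such cells of all libraries, 65 fell in clusters named growth-plate chondrocyte-like. The 381 superficial chondrocyte-like cells, marked by lubricin (Prg4), held Grem1 at 245 CPM, near the 256 CPM of dpMSC-like cells of that library, with Bmp2 at 92.1, Bmp6 at 60.7 and Gdf5 at 46.3 CPM. The 225 fibroblast-like cells held Grem1 at 157 CPM and Bmp4 at 35.7 CPM. Grem1 was thus spread over several populations in this library. Of its UMIs in cells, dpMSC-like cells held 58.2% and growth-plate chondrocyte-like cells 13.3%. Superficial chondrocyte-like cells held 7.66%, mpMSC-like cells 7.31% and fibroblast-like cells 3.43%. The fibroblast-like UMIs lay in 36 of the 225 cells, and 5 cells held 46.1% of them. In 55 hypertrophic chondrocyte-like cells (Col10a1, Ihh), Gdf5 stood at 109 CPM, Bmp2 at 84.6, Bmp6 at 65.9 and Nog at 58.8 CPM, while Grem1 was at 0 UMIs. In these cells 33 of the 76 Gdf5 UMIs and 13 of the 41 Nog UMIs came from 1 cell, without which Gdf5 stood at 63.3 and Nog at 41.3 CPM. Mural-like cells carried Bmp5 at 61.9, 47.4 and 42.3 CPM, from 6, 6 and 22 UMIs, a range that overlapped that of mpMSC-like cells.

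Endothelial cells were low in most members. Among them, arterial cells (aEC-like) stood apart, with Bmp2 at 47.5, 59.2 and 41.0 CPM and Bmp6 at 90.1, 63.5 and 31.9 CPM. Grem1, Nog, Bmp3 and Bmp7 were at 0 UMIs in aEC-like cells of all 3 libraries. In endothelial sums against the mean of mpMSC-like, dpMSC-like and OB-like cells, 8 of 10 members were called, all lower, where 59.6% of all genes tested were called. The log2 fold changes ran from -5.95 ± 0.50 for Bmp3 (edgeR adjusted p = 1.38e-11) to -2.26 ± 0.24 for Bmp4 (edgeR adjusted p = 4.48e-10), and the median of the 10 members was -4.18, against -0.14 over all genes tested. Bmp2 differed by -0.32 ± 0.28 (edgeR adjusted p = 0.336) and its groups overlapped. Of the 8 calls, that of Bmp7 was lost without the Pdgfra-GFP library.

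Capillary cells of the metaphysis (mpEC-like) were compared with sinusoidal cells of the marrow (bmEC-like). Bmp2 stood at 2.88, 4.24 and 4.11 CPM in mpEC-like cells and at 17.6, 13.5 and 21.7 CPM in bmEC-like cells. Bmp4 stood at 2.88, 0.943 and 2.05 CPM against 15.8, 13.9 and 19.3 CPM. Neither gene's groups overlapped, and both were lower in mpEC-like cells in 3 of 3 libraries, with log2 fold changes of -2.20 ± 0.60 for Bmp2 (edgeR adjusted p = 0.0101) and -2.88 ± 0.58 for Bmp4 (edgeR adjusted p = 0.000473). These were the only 2 of 10 members called, where 12.7% of all genes tested were called. The Bmp2 call was lost without metaphyseal replicate 1 and when cells were grouped by clusters. Counts were low, at 8, 9 and 2 Bmp2 UMIs in mpEC-like cells.

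Summed over members, populations differed in how much ligand and antagonist RNA they held. In dpMSC-like cells the 7 ligands summed to 759, 792 and 544 CPM and the 3 antagonists to 1092, 1128 and 777 CPM, so that ligands made up 41.0%, 41.3% and 41.2% of the members' UMIs. The sums differed between libraries but this share hardly did. In mpMSC-like cells ligands summed to 161, 154 and 134 CPM and antagonists to 67.0, 97.9 and 77.1 CPM. OB-like cells held 122, 124 and 115 CPM of ligands and 4.41, 15.5 and 12.9 CPM of antagonists. In growth-plate chondrocyte-like cells ligands summed to 319.6, 425 and 185 CPM and antagonists to 48.2, 110.1 and 116 CPM. Late osteoblast or osteocyte-like cells of the Pdgfra-GFP library had the highest ligand sum, 1027 CPM, beside 17.7 CPM of antagonists. In mpEC-like cells the ligands summed to 10.1, 8.96 and 6.16 CPM. These sums weigh genes by captured molecules.

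**Figure D4:**
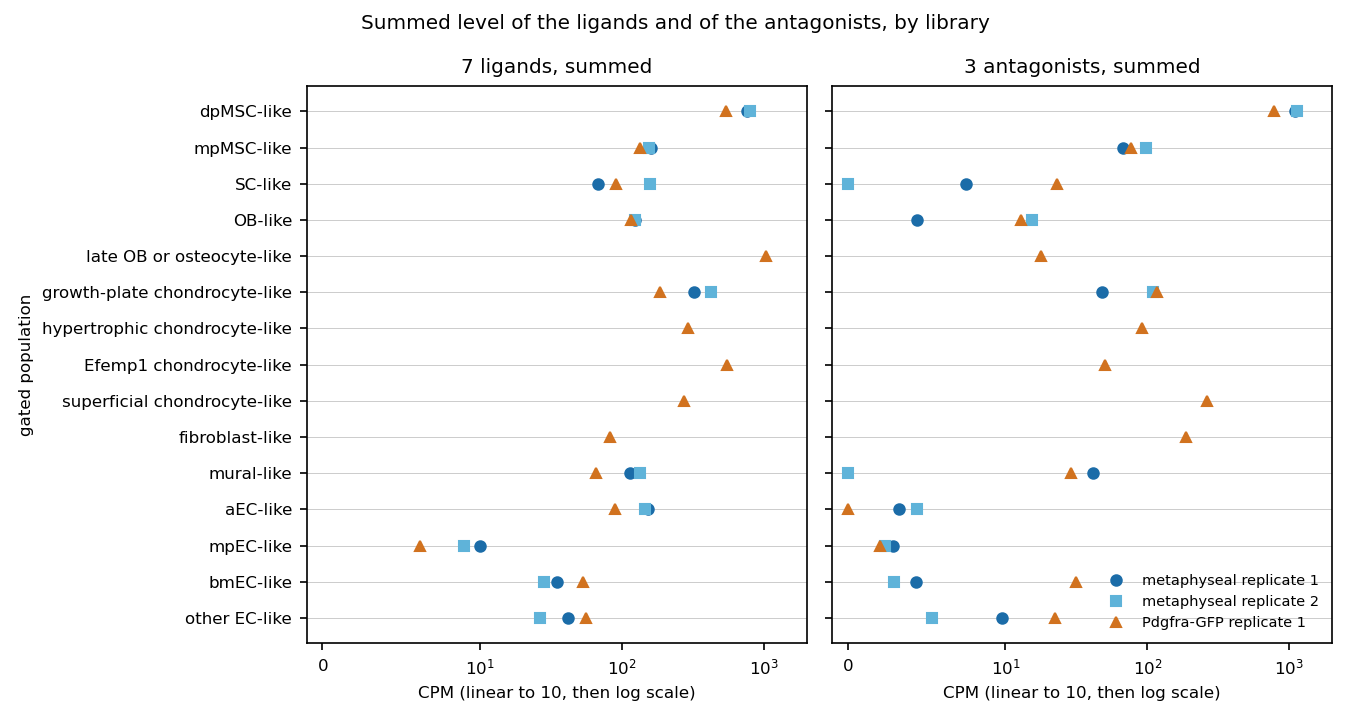
Summed CPM of the 7 ligands (left panel) and of the 3 antagonists (right panel) in each population (rows), on axes linear to 10 CPM and logarithmic above, with 1 point per library with at least 10 cells. The dpMSC-like points lie far to the right in both panels, and the OB-like points lie at 115 to 124 CPM for ligands and 4.41 to 15.5 CPM for antagonists.

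The rest of the pathway was read from a list of 41 other ligands, antagonists, receptors, co-receptors, Smads and Id targets, of which 32 passed the filter on low counts. In SC-like against mpMSC-like cells, where 5.95% of all genes tested were called, 6 of the 32 were lower and 0 higher. These were the antagonists Fst (follistatin, which binds activins and some BMPs) and Nbl1, the pseudoreceptor Bambi, the inhibitory Smad6, and the targets Id2 and Id4. Fst stood at 7.50, 12.1 and 13.9 CPM in SC-like cells against 67.0, 86.4 and 89.1 CPM in mpMSC-like cells (log2 fold change -2.84 ± 0.51, edgeR adjusted p = 0.000248).

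In mpMSC-like against dpMSC-like cells, where 28.6% of all genes tested were called, 9 of the 32 were higher and 9 lower. The other ligands tested, Bmp8a, Gdf10 and Gdf11, were all higher, as was the protease gene Bmp1 listed with them. Bmp8a stood at 10.1, 12.3 and 10.5 CPM against 0.503, 0 and 0.597 CPM. Of 6 receptors, 4 were lower, among them the type II receptor Acvr2a, at 2.16, 8.82 and 4.17 CPM against 46.3, 44.0 and 35.6 CPM. Nbl1 was higher by 3.70 ± 0.29 on the log2 scale (edgeR adjusted p = 3.36e-12) and Fst fell by 2.86 (edgeR adjusted p = 4.48e-10). Follistatin thus followed the dpMSC-like pattern of Grem1 and Chrdl1, and Nbl1 did not. In OB-like against mpMSC-like cells, where 39% of all genes tested were called, 6 of the 32 were higher and 11 lower. Bambi rose by 2.65 on the log2 scale, while Fst fell by 2.88, the target Id4 fell by 3.61 and the ligand Gdf10 fell by 3.95.

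In chondrocyte-like against mpMSC-like cells, where 36.4% of all genes tested were called, 8 of the 32 were higher and 14 lower. Gdf11, a ligand of the activin branch, fell by 4.97 on the log2 scale, Smad6 fell by 3.15, Id4 fell by 3.43 and Id3 fell by 2.83. Among other antagonists Chrd, Chrdl2, Fstl3 and Twsg1 were higher and Nbl1, Fst and Fstl1 lower. In endothelial sums against stromal ones, where 59.6% of all genes tested were called, 10 of the 32 were higher and 18 lower. The endothelial co-receptor Eng (endoglin) was higher by 4.53 ± 0.14 on the log2 scale (edgeR adjusted p = 4.11e-25) and its partner receptor Acvrl1 by 3.62 ± 0.17 (edgeR adjusted p = 2.6e-20), while the type I receptor Bmpr1a fell by 5.08. Bmp8a, Gdf10, Gdf11 and the protease gene Bmp1 were lower, as were 7 of 9 other antagonists tested. In mpEC-like against bmEC-like cells Bmp1, a protease in spite of its name, was higher by 1.73 on the log2 scale, and Smad6 fell by 1.84, Id4 by 1.61 and Id2 by 1.15. With Nbl1 higher and Smad4 lower, 2 of the 32 were higher and 4 lower there, where 12.7% of all genes tested were called.

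For each member, the genes with the most similar levels over the 44 sums of the fit were listed by Pearson's r of log2(CPM + 1) among 11642 genes, as a description, since the sums share libraries and populations. Bmp5 was most like the heparan sulfate proteoglycan gene Gpc6 (r = 0.901) and the BMP receptor gene Bmpr1a (r = 0.892). Chrdl1 was most like Aldh3a1 (r = 0.828), and Grem1 most like Sfrp1 (r = 0.853), which encodes a secreted Wnt antagonist. Bmp6 was most like Sulf1 (r = 0.830), which encodes a heparan sulfate sulfatase. Bmp4 was most like Gm15222 (r = 0.818), the gene that overlaps it on the other strand. Bmp3 was most like Fabp3 (r = 0.868), Bmp7 most like Slc16a4 (r = 0.934), Gdf5 most like Dhx58os (r = 0.904), Nog most like Efcab1 (r = 0.861) and Bmp2 most like Kank1 (r = 0.816). Among pairs of members, Bmp3 and Bmp7 were the most alike (r = 0.792), followed by Bmp6 and Chrdl1 (r = 0.679), Bmp2 and Gdf5 (r = 0.668) and Grem1 and Chrdl1 (r = 0.661).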

How the data were processed

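The values deposited by the authors are raw UMI counts of genes in barcodes from 3 droplet libraries (10x 3′ chemistry V3 per the study's methods), with all 6794880 possible barcodes and 55422 genes. Per the labels and the study's methods, reads were trimmed with fastp 0.20 and counted with STARsolo (STAR 2.7.3a) on mm10, where the annotation was extended by the reporter transcript. No values of other samples were in the files. The counts come from the 3′ ends of transcripts. The deposited counts hold every barcode, so the filters on cells were applied here.

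Barcodes were kept with at least 1500 genes (metaphyseal) or 1000 genes (Pdgfra-GFP), under 15% mitochondrial and under 30% ribosomal UMIs. A cell's score for each of 19 marker lists was the mean of its markers' log values scaled to the 90th percentile of cells with a UMI. A cell entered a population at a score of at least 0.3 with a lead of at least 0.05 over other lineages. SC and mpMSC counted as 1 lineage, in which SC went first. A cell whose SC score met these limits was called SC-like even where its mpMSC score was higher. Scrublet called 25, 18 and 184 doublets (1.05%, 0.895% and 1.63% of cells), which were kept in the main analysis. The rates expected from cell number were 1.91%, 1.61% and 9.055%, so doublets may remain after removal, above all in the Pdgfra-GFP library.

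Counts were summed per library and population of at least 10 cells, which gave 44 sums, and tested with edgeR 4.0.16 in R 4.3.3 (TMM scaling, quasi-likelihood test, Benjamini-Hochberg adjustment over 12954 genes, threshold 0.05). The library was a block, since the populations of a library came from 1 suspension and are thereby paired. CPM levels carry an exact Poisson interval, and shares of cells were taken after thinning to 2000 UMIs, which left out 419 shallower cells. The depth of 22082735 to 91747759 UMIs per library sets the precision, and a count of 0 was read as allowing up to 3 counts. Alternatives were DESeq2 1.42.0, other filters, gates and clusters (scanpy 1.11.5), doublet removal, no block and each library left out. Scripts ran in Python 3.11.15 and the test was checked on simulated data.

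The 10 members, the marker lists and the list of other pathway genes were chosen with earlier results of these data known. Named from that list were at most the 4 genes with the smallest adjusted p per comparison, with further called genes named only where they are counted, and for likeness the closest genes per member with at least 20 CPM in a sum, gating markers left out. Differences within the single Pdgfra-GFP library were not tested. Promoter sequences of Bmp4 and Grem1 came from RefSeq, gene positions from GENCODE on GRCm38.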

Additional observations from a re-analysis of the deposited data

Results flagged for a closer look

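In 3 members the libraries differed in direction between growth-plate chondrocyte-like and mpMSC-like cells, with both metaphyseal libraries on one side and the Pdgfra-GFP library on the other. The difference between libraries was not tested, and sort, region and genotype cannot be told apart. Values are CPM in chondrocyte-like cells minus CPM in mpMSC-like cells. For Grem1 the difference was -41.1 and -68.2 CPM in the metaphyseal libraries and 26.4 CPM in the Pdgfra-GFP library. For Bmp6 it was 14.3 and 57.8 CPM against -18.4 CPM, and for Nog 8.8 and 42.3 CPM against -5.5 CPM. The metaphyseal values rest on 35 and 34 chondrocyte-like cells, with 0 and 1 UMIs of Grem1, 31 and 60 of Bmp6 and 11 and 42 of Nog. In metaphyseal replicate 1 the 95% exact interval of the ratio included 1 for Bmp6 (0.841 to 2.12) and Nog (0.755 to 4.23). Without the richest cell Bmp6 stood at 38.3 CPM against 41.1 CPM in mpMSC-like cells of that library, where the direction turned, and at 31.3 against 29.1 CPM in metaphyseal replicate 2.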

How the results depend on the processing

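Of 416 values of the 32 called fold changes under the alternatives, 382 kept direction and call, 33 kept direction but missed the threshold and 1 reversed, and 21 fold changes kept their call under every alternative run. Causes were not tested. Of the 3 members called in SC-like against mpMSC-like cells, 1 was called without the replicate block, 1 with the stricter gate, and 0 to 1 with 1 library left out. With clusters in place of gates, only the Pdgfra-GFP library had an SC-like cluster, of 261 cells. With at least 20 cells per sum, SC-like cells likewise remained only in that library. The SC-like side then rested on 1 library, so calls of this comparison under either setting are not given. In chondrocyte-like against mpMSC-like cells clusters gave 3 calls against 6, with Bmp2, Bmp4 and Gdf5 lost. Leaving out 1 library there gave 5 to 9 calls, with 9 without the Pdgfra-GFP library. In mpEC-like against bmEC-like cells clusters gave 1 call against 2, with Bmp2 lost, and leaving out 1 library gave 1 to 2. Bmp2 in OB-like against mpMSC-like cells turned to -0.63 (log2) with clusters, and the Grem1 call was lost there. The Nog call in mpMSC-like against dpMSC-like cells was lost with DESeq2's Wald test, with clusters and without the Pdgfra-GFP library. In chondrocyte-like cells the uncalled Grem1 value of 0.05 turned to -1.68 with DESeq2's Wald test, -0.15 without the block, -0.08 with at least 500 genes per cell, and -1.54 with clusters, and ran from -5.64 to 0.55 with 1 library left out, where Bmp6 ran from -0.23 (without metaphyseal replicate 2) to 1.37 (without the Pdgfra-GFP library, as for Grem1's -5.64). Nog there was called with DESeq2's size factors (0.83), with no filter on low counts (0.88) and with doublets removed (0.83).

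Without the replicate block, calls over all genes fell from 771 to 278 (SC-like), 3702 to 1863 (mpMSC-like against dpMSC-like), 5051 to 2891 (OB-like), 4716 to 3009 (chondrocyte-like) and 1650 to 695 (mpEC-like), while members called were 1, 6, 7, 5 and 2, and 8 in endothelial cells. With clusters they were 31 in the SC-like, 2088 in the mpMSC-like against dpMSC-like and 583 in the mpEC-like comparison. With 1 library left out they were 333 to 414 in the SC-like, 2427 to 3835 in the mpMSC-like against dpMSC-like and 643 to 2830 in the mpEC-like comparison. The few SC-like, chondrocyte-like and late osteoblast-like cells of the metaphyseal libraries limit what could be detected there.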

Other observations

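A few single cells held most UMIs of a member in a population. In metaphyseal replicate 1, 1 ungated cell held 90 of 117 Bmp2 UMIs of the ungated cells, and 1 neutrophil precursor-like cell held all 22 Gdf5 and all 15 Bmp2 UMIs of its population. All 37 Bmp2 UMIs of the 9 hypertrophic chondrocyte-like cells of that library came from 1 cell. Leaving out the richest cell, an alternative chosen after seeing the data, set Bmp6 in growth-plate chondrocyte-like cells at 38.3, 31.3 and 14.1 CPM, against 41.1, 29.1 and 33.1 CPM in mpMSC-like cells, so that chondrocyte-like cells were then higher only in metaphyseal replicate 2.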
